A study of Rattus norvegicus with 6 samples.

Results

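The rat miRNAs numbered miR-3541 to miR-3596 are a block of late entries in the miRNA registry, annotated in rat (prefix rno). They were picked from the array by name alone, as every probe whose target has a number within these bounds, and by no measured value. This gave 66 of the 761 rat miRNA probes, covering 48 numbers, with the 5p and 3p arms of a hairpin counted apart. They were set against the 493 probes for miRNAs numbered under 500, most of them long known and conserved, and the remaining 202 probes included let-7 and numbers in between and above. Heart RNA came from adult Sprague Dawley rats. The 3 controls (animals 9, 10 and 11) were labelled control, and the other 3 (animals 13, 14 and 16) had chronic colitis from dextran sodium sulfate (DSS), given at 3% in 4 cycles of 5 days with 9 days of water in between, over 8 weeks. Each heart was hybridized to 1 single-color array with 4 spots per probe, so the replicates were separate animals and their number limits the precision of every value. DSS acts as a chemical injury of the colon lining, and whole-heart RNA mixes muscle, vessel, connective tissue and blood cells. In such bulk RNA, fewer cells of a type and less RNA per cell cannot be told apart.

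A miRNA is cut from one or the other arm of an RNA hairpin and guides a silencing complex to messenger RNAs, mainly through its seed, bases 2 to 8 from the 5′ end. The 5p and 3p names say which arm it came from. Some loci are transcribed from both DNA strands, and a hairpin read from the opposite strand can fold as well, so that its mature RNA is complementary to the known miRNA. No textbook role in the heart can be given for most of the miRNAs of this block. The miRNAs that some of them mirror are well known, and these are named below for that reason.

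The 9 sequences below, read from RefSeq and the array's own target list, are those on which the results turn, and the capitals mark the seed. The first 4 are the miR-3596 group, whose seeds are shifted copies of one another or differ by a base. The next 3 are complementary to other miRNAs, and the last pair is not.
rno-miR-3596a: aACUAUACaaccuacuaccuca
rno-miR-3596b: aACUAUGCaaccuacuaccu
rno-miR-3596c: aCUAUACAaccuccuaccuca
rno-miR-3596d: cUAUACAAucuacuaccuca
rno-miR-3571: uACACACUucuuuacauuccaua
rno-miR-3574: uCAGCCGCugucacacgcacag
rno-miR-3591: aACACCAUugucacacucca
rno-miR-3584-5p: gGGAGGAGuccaggaggc
rno-miR-3585-5p: uUCACAAGaaggugucuuucau
The known miRNAs opposite to 4 of these are shown in the same way, so that each can be read backwards against its mirror.
rno-let-7a-5p: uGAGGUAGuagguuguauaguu
rno-miR-1-3p: uGGAAUGUaaagaaguguguau
rno-miR-210-3p: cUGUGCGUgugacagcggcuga
rno-miR-122-5p: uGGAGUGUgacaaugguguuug

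Complementarity to another miRNA was what a large part of these sequences had in common. Of the 66, 31 paired with another miRNA on the array over an unbroken run of 16 to 22 Watson-Crick bases, and 19 of these paired over their whole length. In the other 35 the longest run was only 7 to 11 bases. The limit of 16 bases was placed in this gap after the sequences were seen. miR-3596a paired with let-7a-5p over 22 bases, miR-3574 with miR-210-3p over 22, miR-3571 with miR-1-3p over 21 and miR-3591 with miR-122-5p over 20. Because an array probe is made complementary to its target, the probe for such a miRNA carries the letters of the known miRNA itself. RefSeq held 61 of the 66 with the same sequence. On the rat assembly GRCr8, the locus of 25 of these 61 overlapped another listed hairpin, in every case on the opposite strand. The locus was the miRNA's own hairpin, or its mature span where no hairpin was listed. Another listed miRNA gene was overlapped by 30 of the 61, all of them complementary to another miRNA as above. The spans of protein-coding genes contained 33 of the 61, 13 were on chromosome X and 10 on chromosome 6. The RefSeq table used here gives gene spans only, so exons and introns were not resolved.

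The loci of the miRNAs whose values are followed below were these. The miR-3571 hairpin, chr18:2160316-2160426 on the plus strand, lies inside the span of Mib1, a ubiquitin ligase gene of the Notch pathway, opposite the hairpin of Mir1. The miR-3574 hairpin is at chr1:205755917-205756034 on the plus strand, opposite Mir210. The miR-3591 hairpin is at chr18:61028804-61028912 on the minus strand, opposite Mir122. The miR-3596a hairpin is at chr8:50805193-50805306 on the minus strand, opposite Mirlet7a-2. The hairpins of miR-3596b, chr17:16322261-16322355, and miR-3596d, chr17:16320497-16320593, are neighbors on the minus strand in one let-7 cluster. That of miR-3596c, chr1:67350220-67350336 on the minus strand, overlaps Mirlet7e. The miR-3584 hairpin, chr1:256727531-256727611 on the minus strand, falls within the span of Itprip, and the miR-3585 hairpin, chrX:151706708-151706825 on the minus strand, overlaps no listed gene and has Mir201 and Mir547 as near neighbors.

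Most of these miRNAs shared their seed with no probe of another number, which was also the case for most other miRNAs on the array. All 66 seeds were different from one another. A seed was shared with a probe of another number by 4 of 66 (6.06%), against 96 of 493 (19.5%) among those numbered under 500. Among the remaining probes it was 29 of 202 (14.4%). The difference between these shares was not tested. miR-3568 had the seed of miR-22-5p, miR-3573-5p that of miR-423-5p and miR-3586-5p that of miR-339-5p. miR-3596d had the seed of let-7a-1-3p, let-7b-3p, let-7f-1-3p and miR-98-3p, all 3p arms of let-7 family hairpins. The base composition was alike, with a median GC content of 48.9% against 47.4% for numbers under 500, and the median length was 22 bases in both. Within the block, 4 miRNAs (miR-3571, miR-3596a, miR-3596c and miR-3596d) contained no G at all.

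Few of these miRNAs were detected in the heart. A spot counted as detected when it exceeded the background by over 3 SD, measured on empty spots, with a pixel CV under 0.5, and a miRNA needed 2 of its 4 spots. By this rule 16 of 66 (24.2%) were detected on at least 3 of the 6 arrays, against 200 of 493 (40.6%) for numbers under 500 and 282 of 761 (37.1%) for all miRNAs. The difference between these shares was not tested. All 6 arrays detected only 4 of the 66 (6.06%), namely miR-3574, miR-3584-5p, miR-3591 and miR-3596c, whereas 133 of 493 (27.0%) of the low-numbered miRNAs were on all arrays. A further 39 (59.1%) were detected nowhere, and 5, 6, 4, 4 and 4 were detected on 1, 2, 3, 4 and 5 arrays. The control arrays detected 13, 8 and 12 of the 66 and the DSS arrays 24, 18 and 14. Every DSS array was thus above every control array, while for the low-numbered miRNAs the counts overlapped, at 198, 164 and 184 in control and 241, 176 and 169 in DSS. The limit was not equally strict on all arrays, since the share of empty spots that exceeded it was 10.8%, 23.4% and 1.58% in control and 1.74%, 32.1% and 1.27% in DSS. Its part in these counts was not tested. With the limit at 5 SD, 9 of the 66 were detected on at least 3 arrays, and 10 with the limit set from the median empty spot, against 167 and 172 of the 493.

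**Figure D1:**
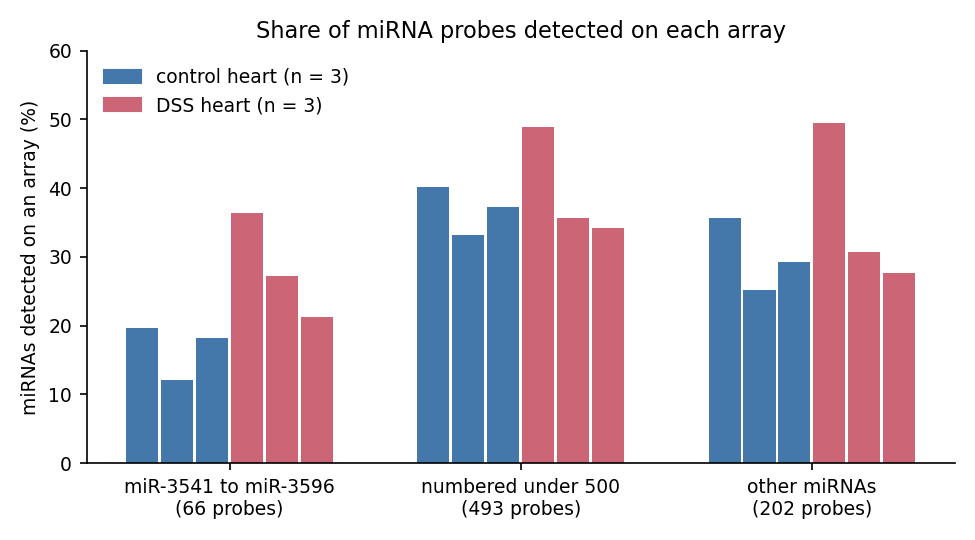
Share of miRNA probes detected on each array, in percent of the probes of a class, for miR-3541 to miR-3596, those numbered under 500 and all others. Each bar is 1 array, in the order of the animal numbers 9, 10, 11, 13, 14 and 16, with control in blue and DSS in red. For the first class the bars run from 12.1% to 36.4%, and all 3 DSS bars are above the controls.

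The miRNAs of this block that were detected were dim. Signals are given as log2 of the normalized brightness, where undetected probes lie near 6. Each probe has its own affinity, so these are levels of probe signal over lists and not amounts of RNA. The median of all 66 in control hearts was 6.24, close to 6.40 for the low-numbered miRNAs, since most probes of both lists were near background. The upper ends differed much more. The 90th percentile was 7.11 against 10.28 and the brightest control mean 8.60 against 14.30, which belonged to miR-133a-3p, a miRNA of heart and skeletal muscle. It was followed by miR-133b-3p at 14.17 and miR-30c-5p at 14.05. Among detected miRNAs the medians were 7.04 and 8.61. A group mean above 500 on the linear scale was reached by 3 of 66 (4.55%), none of them in control hearts, against 103 of 493 (20.9%).

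**Figure D2:**
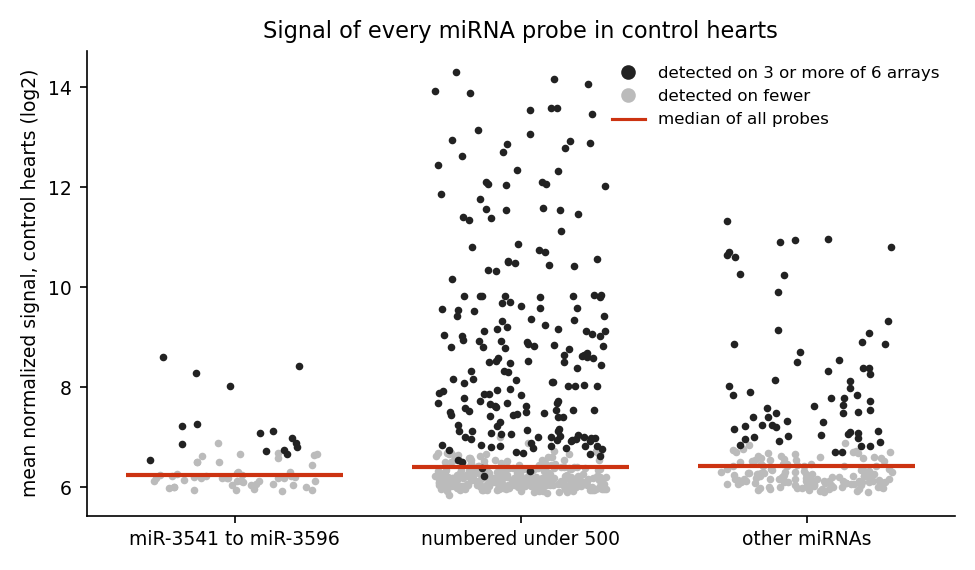
Mean log2 signal in the 3 control hearts for every miRNA probe, 1 point per probe, with black for those detected on at least 3 of 6 arrays and a red line at the class median. The block of miR-3541 to miR-3596 ends at 8.60, while the numbers under 500 reach 14.30.

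The hearts were checked against muscle, blood, liver and brain miRNAs. Of 6 heart muscle miRNAs, 4 were detected on all 6 arrays (miR-1-3p, miR-133a-3p, miR-133b-3p and miR-499-5p), with a summed linear signal of 41556 to 64817 in control and 38959 to 94832 in DSS, whereas miR-208a-3p was detected on 1 array and miR-208b-3p on none. Within this list miR-1-3p was called higher in DSS (log2 fold change 3.11) and miR-499-5p lower (-2.09, adjusted p = 0.0213). Of 7 blood cell miRNAs, 4 were detected, 2 of these called higher and 2 lower, and the sum was 7333 to 8460 in control and 12465 to 15472 in DSS. This sum moved with the groups, and its part in the results below was not tested. The liver miRNA miR-122-5p was detected on 1 array, and of 2 brain miRNAs miR-9a-5p was detected on 4 arrays (7.59 in control, 6.99 in DSS) and miR-124-3p on none.

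DSS and control hearts were compared to ask which miRNAs chronic colitis goes with in the heart. Of the 16 detected miRNAs, 5 passed an adjusted p of 0.05 in limma, 4 higher and 1 lower in DSS. This was 31.25%, beside 49.3% of all 282 tested miRNAs (20.9% higher and 28.4% lower). The order of these shares turned with some of the processing. Of the 16 members, 68.75% were called without normalization (42.2% of all tested miRNAs), 62.5% with plain background subtraction (54.3%), 93.75% with scaling to spike-in probes (63.1%) and 75% with scaling to 5S rRNA (50.7%). In every other alternative the members' share was lower than or equal to that of all miRNAs tested. It was 56.25% with quantile normalization (56.7%), 50% on the authors' processed values (53.2%) and 43.75% with array weights (66.0%). At an unadjusted p under 0.05 it was 7 of 16, against a background of 58.5%. The groups did not overlap in 11 of 16, against 66.3% over all miRNAs tested. Means were higher in DSS for 13 and lower for 3, with a median log2 fold change of 0.30, beside -0.32 for the 200 low-numbered and -0.06 for all 282. miR-3557-3p, miR-3564 and miR-3593-3p, all with higher means, were detected on DSS arrays alone, and none of the 16 on control arrays alone. The balance of 13 to 3 is thus not independent of the detection filter. For the low-numbered miRNAs 37 were called higher and 67 lower. This balance was turned to 47 and 33 without normalization, 101 and 10 with spike-in scaling and 77 and 13 with 5S rRNA scaling. It was kept with plain background subtraction (44 and 68), quantile normalization (48 and 70) and the authors' processed values (38 and 74).

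The rise with the highest fold change on this scale was that of miR-3584-5p, although with plain background subtraction miR-3571 (1.77) and miR-3583-3p (1.67) were slightly above it (1.65). Its log2 signal was 8.46, 8.25 and 8.58 in control and 9.09, 10.99 and 10.21 in DSS hearts. The 3 DSS hearts were all above the controls but spread over a wider range than the change itself. The log2 fold change was 1.66 ± 0.46 (SE, n = 3 per group), 3.17-fold, with an adjusted p of 0.0247. It was no longer called without control replicate 9 or 11 or without DSS replicate 14 or 16, although its fold change stayed positive, at 1.26 or more. It was also not called when all 761 probes were tested (adjusted p = 0.0798).

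miR-3574, the mirror of the hypoxia-induced miR-210-3p, was 8.33, 8.74 and 8.71 in control and 9.45, 10.49 and 9.58 in DSS. All DSS hearts were higher. The log2 fold change was 1.24 ± 0.31 (SE, n = 3 per group) with an adjusted p of 0.0210, and the call was lost without control replicate 9 or 11 or DSS replicate 16 and with all probes tested (adjusted p = 0.0564). miR-3591, the mirror of the liver miRNA miR-122-5p, was 7.97, 8.32 and 8.58 in control and 8.83, 9.51 and 8.73 in DSS. Here too no control heart reached the lowest DSS heart, but the gap was small. Its log2 fold change of 0.73 ± 0.28 (SE) did not pass, with an adjusted p of 0.0642.

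miR-3571, the mirror of the muscle miRNA miR-1-3p, was 7.22, 7.10 and 7.35 in control and 7.96, 8.16 and 8.41 in DSS hearts. The groups did not overlap, and miR-3571 was not detected on control replicate 10. Its control values are close on this scale, where the offset compresses differences near background. Before the offset and normalization, its background-subtracted brightness was 33.2, 41.4 and 114 in control and 297, 271 and 258 in DSS. The median empty spot lay 9.56, 45.0 and 11.4 above the same background in control and 7.07, 50.3 and 27.5 in DSS. On control replicate 10 miR-3571 was thus below it. The log2 fold change was 0.96 ± 0.19 (SE, n = 3 per group), 1.94-fold, with an adjusted p of 0.0151. Of the 6 fits that each left out 1 heart, the one without DSS replicate 16 lost this call. With plain background subtraction the log2 fold change was 1.77.

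The 4 miR-3596 miRNAs, whose sequences above differ by a few bases, held 1 call among them. miR-3596a, the mirror of let-7a-5p, was 7.11, 7.11 and 7.19 in control and 7.74, 7.81 and 7.91 in DSS, a log2 fold change of 0.68 ± 0.16 (SE, n = 3 per group) with an adjusted p of 0.0173. miR-3596b, opposite let-7d-5p, was 7.04, 6.98 and 6.97 against 7.29, 7.41 and 7.25, a difference of 0.32 with an adjusted p of 0.125. Both had groups that did not overlap, and in both the SD within a group was under 0.1 on this scale. The offset compresses such values. Before offset and normalization, background-subtracted brightness was 22.6, 42.1 and 84.3 against 229, 218 and 169 for miR-3596a. For miR-3596b it was 19.9, 38.5 and 54.9 against 133, 158 and 86.8. Neither was detected on control replicate 10, where both lay below the median empty spot, at 45.0 above background. miR-3596c, opposite let-7e-5p, was 7.27, 7.31 and 7.22 against 7.23, 7.46 and 7.63, a difference of 0.17 with an adjusted p of 0.427, and its groups overlapped. miR-3596d, opposite let-7f-5p, was detected on DSS replicate 13 alone and was not tested, with 6.35, 6.17 and 6.40 against 6.79, 6.64 and 6.76. The differences among the 4 were not tested. The call for miR-3596a was lost without control replicate 11 or DSS replicate 14 or 16. With all probes tested, miR-3596b and miR-3596d were called beside miR-3596a, each with an adjusted p of 0.0462, and with plain background subtraction the differences of miR-3596a, b and c were 1.60, 1.17 and 0.76.

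miR-3585-5p was the one miRNA of the block called lower. It was 8.85, 7.48 and 7.75 in control and 6.47, 6.04 and 6.45 in DSS hearts, near background in all 3, and it was detected on the 3 control arrays and on DSS replicate 13. The log2 fold change was -1.71 ± 0.37 (SE, n = 3 per group) with an adjusted p of 0.0163. Because the DSS values lie at the level where the offset compresses differences, the size of this fall is not well fixed, and it was -3.03 with plain background subtraction and -2.51 on the authors' processed values. The call was lost without DSS replicate 16 and with all probes tested (adjusted p = 0.0522). Its 3p arm was detected on 2 arrays only.

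The other 8 tested miRNAs lay between 6.55 and 7.08 in control hearts and did not pass. The nearest was miR-3583-3p at 6.95, 6.64 and 6.80 in control and 7.41, 7.09 and 7.36 in DSS, a difference of 0.49 with an adjusted p of 0.0630. The differences of miR-3564 (0.34), miR-3576 (0.28), miR-3542 (0.23), miR-3593-3p (0.21) and miR-3557-3p (0.09) had adjusted p-values of 0.126 to 0.635. Those of miR-3557-5p (-0.27, adjusted p = 0.343) and miR-3594-5p (-0.28, adjusted p = 0.195) were negative. miR-3557-3p, miR-3564 and miR-3593-3p were detected on no control array, so their fold changes are not well measured. For miR-3564, whose groups did not overlap, the group means gave 1.22-fold once control values were raised to the lowest detected signal of their array. This value carries no sampling error, and the difference did not pass in limma (adjusted p = 0.126). Of the miRNAs detected on fewer than 3 arrays, the brightest in control were miR-3559-5p (6.88, and 6.18 in DSS), miR-3552 (6.68 and 6.44) and miR-3585-3p (6.68 and 6.39), and none was tested.

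**Figure D3:**
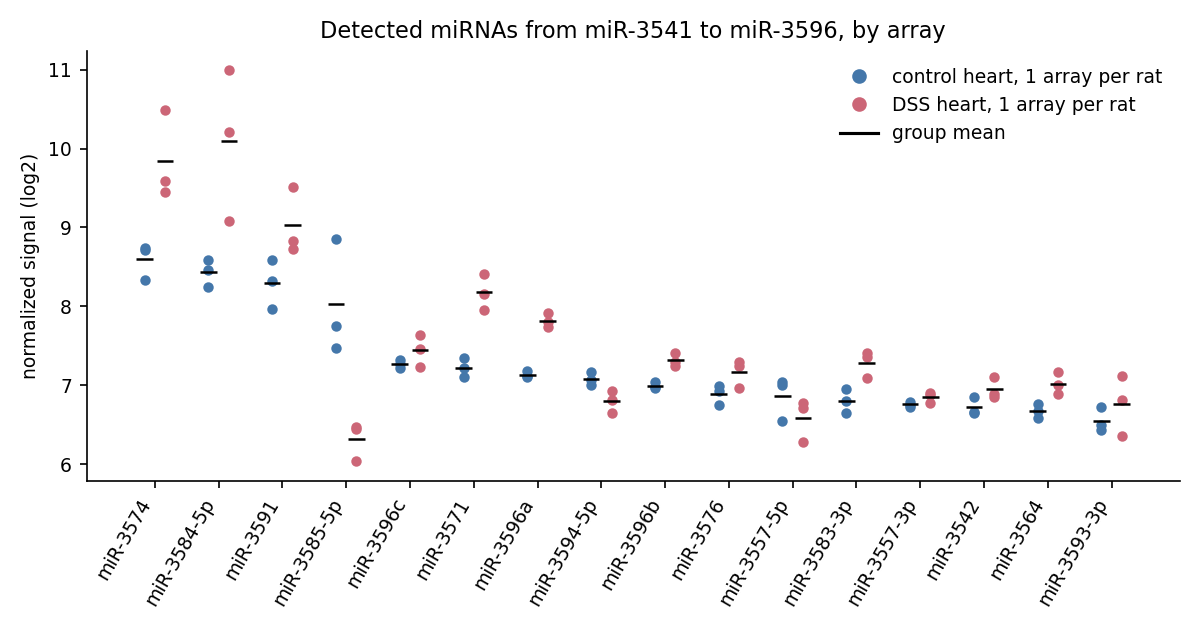
Log2 normalized signal of the 16 detected miRNAs from miR-3541 to miR-3596, in the order of their control means. Each point is 1 heart, with control in blue and DSS in red, and black lines are group means. The groups do not overlap in 11 of the 16, beside 66.3% of all miRNAs tested. Of the called ones, miR-3584-5p, miR-3574, miR-3571 and miR-3596a have all DSS hearts above the controls, and miR-3585-5p has them below.

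**Figure D4:**
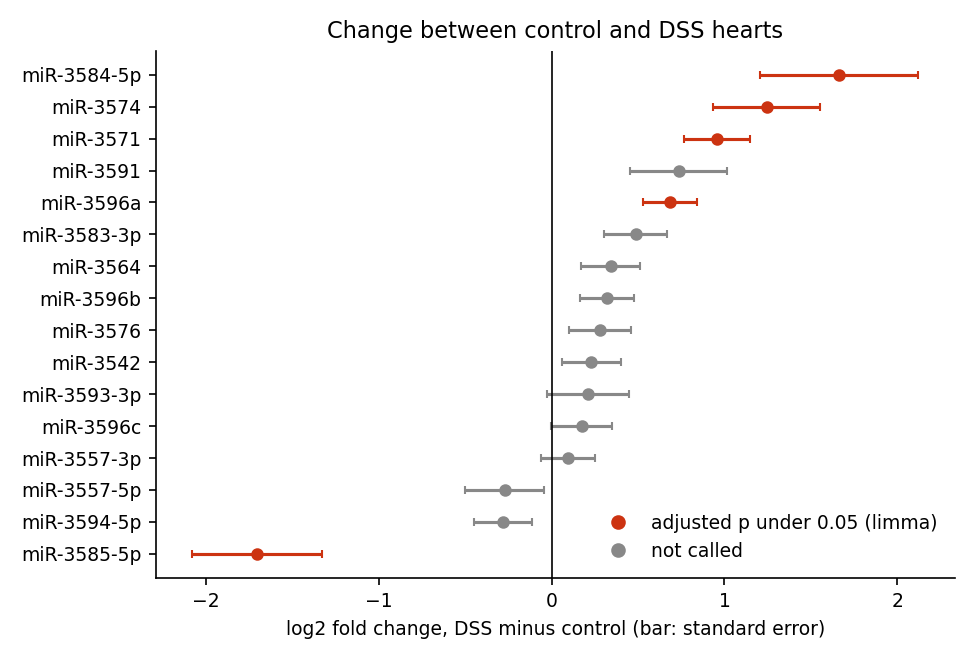
Log2 fold change, DSS minus control, of the 16 detected miRNAs with its standard error from limma (n = 3 per group). Red points passed an adjusted p of 0.05, from 1.66 for miR-3584-5p to -1.71 for miR-3585-5p.

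These directions depend on the scale on which the arrays were made equal. Before normalization, 11 spike-in control probes were lower in DSS by 0.95 on the log2 scale (10.83 in control, 9.88 in DSS) and 6 probes for 5S rRNA by 0.42. Normalization over all miRNA probes removes such a shift. Scaling to the spike-in probes raised the median change of all tested miRNAs by 1.37 and scaling to 5S rRNA by 0.84. On these scales 15 and 12 of the 16 were called, all of them higher, and miR-3557-5p and miR-3594-5p turned positive. miR-3585-5p remained negative, at -0.13 and -0.65, without passing. The low levels matter too, because the offset of 50 in the background correction pulls values near background together and can make their fold changes smaller. With plain subtraction, 9 miRNAs were called higher and 1 lower. Leaving out DSS replicate 16 left 0 called in limma of the 13 still tested, with 6 at an unadjusted p under 0.05, and for numbers under 500 it left 0 called with 91 unadjusted. Without control replicate 11, 2 of 15 in the block were called (13.3%), beside 34.2% of all miRNAs tested. It was 3 of 16 (18.75%) without control replicate 9, beside 30.8%, and 3 of 13 (23.1%) without DSS replicate 14, beside 25.3%.

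For 14 hairpins both arms were on the array. Neither arm was detected on 3 arrays in 8 of them, 1 arm in 5 and both arms in 1, miR-3557. The 5p arm was the detected one for miR-3584, miR-3585 and miR-3594, and the 3p arm for miR-3583 and miR-3593. The brightness of one arm was not compared with that of the other, since they are read by different probes.

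The complementary miRNAs were then set beside their partners, chosen after sequences and values were seen. Of the 31, 9 (29.0%) were detected on at least 3 arrays and 3 of these were called. Of the 35 without such a run, 7 (20.0%) were detected and 2 called. Over all miRNAs 37.1% were detected, above both shares, and 49.3% of those tested were called. The difference between 29.0% and 20.0% was not tested. The partners were themselves detected in 19 of 31 pairs. In 8 of the 9 pairs with a detected member the partner was detected as well, but 11 further members remained undetected beside a detected partner. Examples were miR-3588 opposite miR-125b-5p, whose control level was 13.57, and miR-3556a opposite miR-29a-3p, a regulator of collagen genes, at 13.57 as well. miR-3546, opposite the heart miRNA miR-208a-5p at 9.24, was likewise detected on no array. Across the 66 miRNAs, which share arrays, Pearson's r between GC content and the control signal was 0.139 and Spearman's rho 0.190, given as a description only.

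The changes of a pair could differ widely. let-7a-5p, let-7d-5p and let-7e-5p, members of a family known to restrain growth genes in mature tissue, rose in DSS hearts by 3.07 ± 0.60, 3.16 ± 0.67 and 3.05 ± 0.68 (log2, SE), with adjusted p-values of 0.0151, 0.0161 and 0.0170. The log2 fold changes of their mirrors were 0.68, 0.32 and 0.17, as given above. let-7f-5p rose by 3.32 (adjusted p = 0.0151) beside 0.42 for the untested miR-3596d. On the array miR-1-3p rose by 3.11 ± 0.59 (adjusted p = 0.0151), from 11.86 to 14.97, beside 0.96 for miR-3571. By RT-qPCR, however, the paper found no significant change for this muscle miRNA, and none for miR-3596c. The paper did find miR-1b, another miR-1 entry, and let-7d raised by RT-qPCR, let-7d by less than the array signal was here. Its RT-qPCR covered more hearts per group than the arrays and used a ribosomal RNA as reference. The sizes given here are thus those of array signal only. The mirrors are dim, and the offset compresses differences near background. Its part in the gap to their partners was not tested. With plain background subtraction, let-7a-5p, let-7d-5p, let-7e-5p and miR-1-3p gave 2.87, 2.96, 3.17 and 2.90, and miR-3596a, miR-3596b, miR-3596c and miR-3571 gave 1.60, 1.17, 0.76 and 1.77. miR-210-3p gave the reverse picture. It was 8.17 ± 0.30 in control and 8.23 ± 0.21 in DSS (SD, n = 3), a difference of 0.06 with an adjusted p of 0.833, while its mirror miR-3574 rose by 1.24. With plain background subtraction miR-210-3p gave 0.12 and miR-3574 1.18. miR-122-5p was detected on no control array and 1 DSS array (6.19 and 6.47) while miR-3591 was detected on all 6 arrays, at 8.29 and 9.03. The arms of miR-378a, a miRNA of muscle energy metabolism, fell by 1.24 (5p, adjusted p = 0.0151) and had a difference of -0.49 (3p, adjusted p = 0.0857), beside 0.09 for miR-3557-3p and -0.27 for miR-3557-5p. miR-539-5p rose by 0.82 (adjusted p = 0.0213) beside 0.28 for miR-3576. The differences between the changes of the members and of their partners were not tested, and whether signal at one probe depends on RNA of the opposite strand was not tested.

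**Figure D5:**
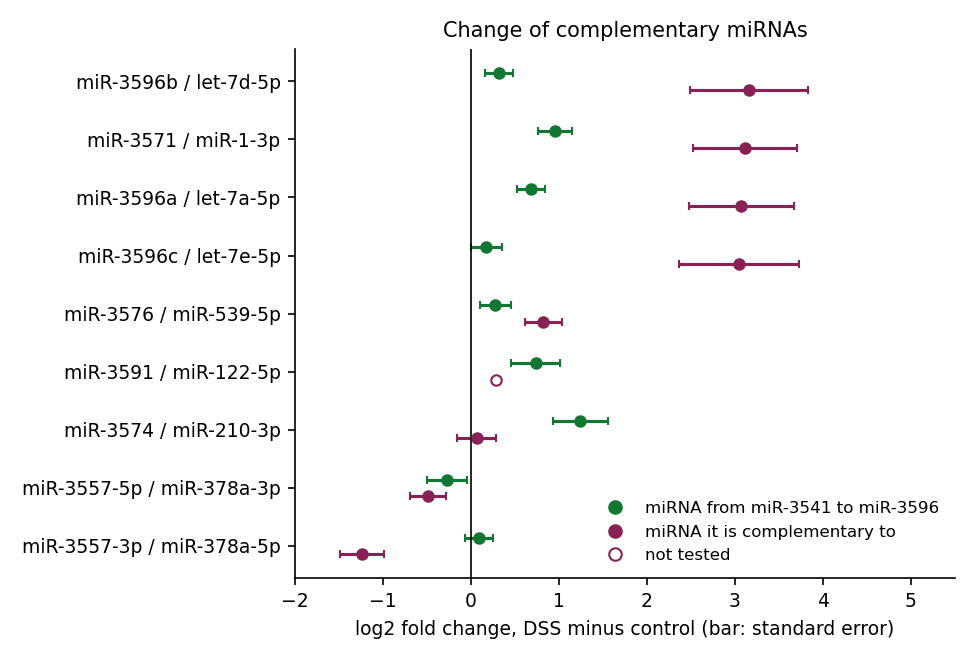
The 9 detected miRNAs from miR-3541 to miR-3596 that are complementary to another miRNA on the array (green), each beside that miRNA (purple), with the log2 fold change, DSS minus control, and its standard error from limma (n = 3 per group). The open point, miR-122-5p, was not tested. The let-7 miRNAs and miR-1-3p have log2 fold changes above 3 on this scale and their mirrors 0.17 to 0.96, which plain background subtraction puts at 0.76 to 1.77, and for miR-210-3p and miR-3574 the order is turned.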

How the data were processed

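The authors deposited scanner intensity values of 6 arrays (Microarray Version 21), which per the file headers hold a median brightness and a pixel SD for every spot, linear and with background included, and a table of intensities after background subtraction and a LOWESS filter. Scanner and image software are not given in the sources used here. Each array had 3968 spots, of which 3044 carried 761 miRNA probes and 632 were empty. With limma 3.58.1 in R 4.3.3, brightness was corrected by normexp (offset 50), averaged as log2 over the 4 spots and normalized by cyclic loess (span 0.7, 3 iterations) over the 761 probes. The background used for detection was the median taken over the dimmest 25% of an array's miRNA spots. The 282 miRNAs with detection on 3 or more arrays entered the test (lmFit and eBayes), with p-values adjusted by Benjamini-Hochberg over all of them (threshold 0.05). The processing was tested on simulated data. The changes simulated were given to brighter probes only, so this does not cover the dim miRNAs of the block. Sequences and loci came from RefSeq tables of GRCr8, and figures from matplotlib 3.10.9 in Python 3.11.15.

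Members, lists and tests were chosen with earlier results of these data known. Named were members detected on 3 arrays, all numbered 3596, the 3 brightest undetected ones, the 3 brightest numbered under 500, markers and miRNAs that pair with or share a seed with a member. Partners other than let-7 were added after their values were seen. Alternatives covered background correction, normalization, the authors' values, filters, spot summary, test, array weights, and each array left out.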

Additional observations from a re-analysis of the deposited data

How the results depend on the processing

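The number of miRNAs from miR-3541 to miR-3596 called, 5 as reported, was 10 with plain background subtraction, 11 without normalization, 9 with quantile normalization, 15 with spike-in scaling, 12 with 5S rRNA scaling and 8 on the authors' processed values, beside 153, 119, 160, 178, 143 and 150 of all 282 miRNAs tested (139 as reported). It was 2 of 4 among miRNAs detected on all 6 arrays, beside 95 of 177. With the methods' t-test after Benjamini-Hochberg it was 0 (9 unadjusted), beside 0 of all 282. It was 0 to 5 with 1 array left out, beside 0 to 140 of all miRNAs tested. With all 761 probes tested it was 4 (miR-3571, miR-3596a, miR-3596b and miR-3596d), beside 74. Under the remaining alternatives it was 5 to 7, beside 100 to 186. For numbers under 500, 104 calls became 54 with all probes tested, 0 with the methods' t-test (111 unadjusted) and 0 to 102 with 1 array left out. The number detected, 16, was 24 at a limit of 2 SD, 9 at 5 SD, 10 with the limit from the median empty spot and 12 to 16 with 1 array left out (an alternative added after seeing the data), and for numbers under 500 it was 167 to 227. miR-3557-5p turned positive without normalization (0.12), with spike-in scaling (1.07) and with 5S rRNA scaling (0.54), and miR-3594-5p without normalization (0.24), with the 75th percentile of miRNAs detected on all arrays (0.056), spike-in (1.19) and 5S rRNA (0.67). The cause was not tested. miR-3584-5p, miR-3574, miR-3571 and miR-3596a stayed positive and miR-3585-5p negative in each alternative run. No paired analysis was possible because no animal number occurs in both groups, and a slide or scan block was not run because the files name neither. Near background, signal limits what can be seen: a miRNA not detected here is not shown to be absent.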
